A study of Homo sapiens with 21 samples.

Results

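The genes described here are 37 human genes of protein-folding stress, matched by Ensembl identifier to a list of symbols, out of 57500 genes counted. They comprise 20 genes of the endoplasmic reticulum (14 chaperones or folding enzymes, 4 genes of ER-associated degradation and 2 ER stress transcription factors), ATF4 with its targets (10 genes) and cytosolic heat shock genes (7 genes). All 37 were matched, and all 37 passed the filter on low counts that left 21958 genes. RNA was sequenced from subcutaneous xenografts of the human bladder carcinoma line HT1376 in female CB17 SCID mice aged 6 to 8 weeks at the start of the study. These mice lack mature B and T cells, and the tumours all came from 1 cell line. The 21 libraries fall into 7 groups of 3, and all share this cell line and host. The vehicle group received no compound, and the other 6 groups received CPI-0209, Valemetostat, MAK683, tazemetostat, PF-06821497 or CPI-1205 by mouth once a day at 75 mg/kg. Collection was on day 15, with 1 hour between the dose and sampling. The study calls all 6 agents EZH2 inhibitors. MAK683 binds a different subunit, EED, of PRC2, the complex that methylates histone H3 and so represses genes. Whether the 3 libraries of a group are 3 animals is not stated in the labels, and p-values here cover library-to-library spread, which may be technical.

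Unfolded proteins in the ER are sensed by IRE1, PERK and ATF6. IRE1 splices the XBP1 message into one for an active transcription factor, ATF6 is cleaved to release another, and both raise chaperones such as HSPA5 (BiP), the lumenal Hsp70 that holds the sensors inactive. PERK phosphorylates eIF2α, as do kinases that sense amino acid shortage, haem shortage or viral RNA, and this favours translation of ATF4, which drives genes of amino acid synthesis and of stress-induced death such as DDIT3 (CHOP). The cytosolic response is separate. It runs through HSF1, which binds heat shock elements and raises Hsp70, Hsp90 and their cochaperones. A count of messages does not show XBP1 splicing, ATF6 cleavage or eIF2α phosphorylation.

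Letters that match the known binding sites of these regulators lie close to the starts of several of the genes, and some of these promoter stretches are shown. The letters searched, on both strands, were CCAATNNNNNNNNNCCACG for the ER stress response element (the site of ATF6 and XBP1 with NF-Y), ATTGGNCCACG for its second form, TGATGNAA for the CEBP-ATF response element used by ATF4, and GAANNTTCNNGAA for a heat shock element. RefSeq windows of 300 bases (250 before and 50 after a start, GRCh38.p14) existed for 36 of the 37 genes, in 51 windows. Only PDIA3 had none. The capitals mark the matching letters, and each stretch reads 5′ to 3′ on the gene's strand.
HSPA5, ER stress response element, chr9:125241376-125241424, minus strand: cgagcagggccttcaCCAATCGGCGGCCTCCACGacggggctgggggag
CRELD2, ER stress response element, chr22:49918539-49918587, plus strand: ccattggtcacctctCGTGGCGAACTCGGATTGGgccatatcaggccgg
HYOU1, second form at both ends, chr11:119057259-119057405, minus strand: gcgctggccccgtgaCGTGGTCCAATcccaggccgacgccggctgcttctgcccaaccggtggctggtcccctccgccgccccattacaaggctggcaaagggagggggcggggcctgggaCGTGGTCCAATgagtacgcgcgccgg
SDF2L1, second form, chr22:21642099-21642139, plus strand: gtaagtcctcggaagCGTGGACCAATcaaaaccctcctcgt
CHAC1, CEBP-ATF response element, chr15:40953247-40953284, plus strand: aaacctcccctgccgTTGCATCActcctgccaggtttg
HSPA8, heat shock element at both ends, chr11:123062164-123062381, minus strand: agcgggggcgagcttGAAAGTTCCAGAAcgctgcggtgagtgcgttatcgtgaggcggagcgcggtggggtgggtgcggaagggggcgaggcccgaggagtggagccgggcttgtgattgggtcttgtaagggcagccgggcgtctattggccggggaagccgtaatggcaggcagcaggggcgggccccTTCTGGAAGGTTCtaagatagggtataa
HSP90AA1, heat shock element, chr14:102087105-102087147, minus strand: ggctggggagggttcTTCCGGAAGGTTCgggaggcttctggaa
The ER stress response element was found in 7 of the genes (HSPA5, HSP90B1, PDIA6, CALR, CANX, XBP1 and CRELD2) and in 0.0769% of all 35116 windows. Its second form was in 3 genes (HYOU1, SDF2L1 and HERPUD1) and in 0.0541% of windows, and the 2 forms share the letters CCACG beside an ATTGG or CCAAT box. The CEBP-ATF element was in ASNS, CHAC1 and HERPUD1 and in 3.62% of windows, and the heat shock element in HSPA8 and HSP90AA1 and in 0.49% of windows. Of the 51 windows of these genes, 9, 3, 3 and 2 held the elements in this order, for the CEBP-ATF element near the share of all windows. The stretches of HSP90B1, PDIA6, CALR, CANX, XBP1, HERPUD1 and ASNS are not printed. The printed stretches are those of HSPA5 and of the motif-bearing genes called against vehicle with at least 1 compound in the tests below. The genes not printed had no such call, so this split does not relate the motifs to the calls. Of the 7 genes with the ER stress response element, CRELD2 alone was called. Called genes with none of these letters in their windows included MANF, CEBPB, PDIA4 and DNAJB11. A match describes letters in this window and shows no binding.

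The totals lay between 9725690 counts, in CPI-0209 library 3, and 25771778, and a gene's level is given in CPM, its counts relative to the library total after scaling by the trimmed mean of M values. Log2 fold changes ± SE and adjusted p-values are from edgeR's quasi-likelihood test, called at an adjusted p under 0.05 over all 21958 genes. A resubmission mark stands in the count column names of PF-06821497 library 2 and CPI-1205 libraries 2 and 3, and in the titles of PF-06821497 library 1 and the same CPI-1205 libraries. The titles and the column names number the PF-06821497 libraries differently, and title numbers are used here. Which PF-06821497 library was resubmitted is therefore uncertain. What was resubmitted is not stated, and some of the results that rest on these libraries are also given without them or by library. Markers of urothelial carcinoma cells, such as KRT5, KRT7 and KRT17, summed to between 9024 and 16570 CPM in each library. Markers of other cell types were also counted. Endothelial markers (8 genes) summed to 8.37 to 9.18 CPM in vehicle, 36.0 to 48.4 with CPI-0209, 22.1 to 36.1 with Valemetostat, 27.6 to 32.0 with MAK683, 12.7 to 18.3 with PF-06821497, 8.92 to 9.85 with tazemetostat and 5.85 to 9.66 with CPI-1205. Fibroblast markers (10 genes) summed to 1271 to 2043 CPM in vehicle and 1728 to 4387 with CPI-0209, and skeletal muscle markers (11 genes) to 612 to 665 and 430 to 1923, the highest of each in CPI-0209 library 3. Macrophage and granulocyte markers (9 genes) summed to 1189 to 1761 CPM in vehicle and up to 2834 in the other groups, and TYROBP among them was at 0 in all vehicle libraries. Plasma cell markers (6 genes) summed to 55.3 to 67.5 CPM in vehicle and 31.8 to 94.9 in the other groups, and adipocyte markers (6 genes) to 5.07 to 6.11 and 3.95 to 51.2. Few genes made up most of these sums. In vehicle library 1, S100A8 was 1590 of 1761 CPM and PRDM1 50.1 of 55.3 CPM. COL1A2 was 1206 of the 1772 CPM of fibroblast markers there, and TNNT3 383 of the 621 CPM of muscle markers. FABP4 and LPL made up most of the adipocyte sum, and ADIPOQ was at 0 in 20 of 21 libraries. The sums do not measure cell content. With CPI-0209, 4 of 7 tested endothelial markers rose and 2 fell, 6 of 10 fibroblast markers rose and 2 fell, and 4 of 11 muscle markers rose and 1 fell. In bulk tumours, fewer cells of a type and less RNA per cell cannot be told apart, and the part of these cells in the changes below was not tested.

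Of the 37 genes, 13 were called with Valemetostat, 12 with CPI-0209, 3 each with MAK683 and PF-06821497 and 0 with tazemetostat or CPI-1205. With CPI-0209, 8 genes rose and 4 fell, beside 22.3% of all genes higher and 18.8% lower, and the median log2 fold change was 0.08 against -0.02 over all genes tested. With Valemetostat, 12 rose and 1 fell, beside backgrounds of 15% and 12.2%, with a median of 0.17 against -0.01. MAK683 gave 3 higher and 0 lower (10.4% and 5.17% of all genes), and PF-06821497 gave 2 higher and 1 lower (5.96% and 3.59%). With tazemetostat and CPI-1205 edgeR called 0 of the 37, and 0% of all genes. At an unadjusted p under 0.05 there were 2 and 11 of the 37, and 647 and 2713 of all genes. DESeq2 called 6 genes higher and 0 lower with tazemetostat and 6 higher and 16 lower with CPI-1205, with 0 of the 37 in either. The share of the 37 called was close to or below that of all genes in both directions with CPI-0209, MAK683 and PF-06821497, and above it for rises with Valemetostat. Upper-quartile scaling moved the median of all genes with CPI-0209 from -0.02 to 0.12, with 5858 genes higher and 2818 lower in place of 4888 and 4129, and gave 3946 and 1924 in place of 3303 and 2684 with Valemetostat.

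**Figure D1:**
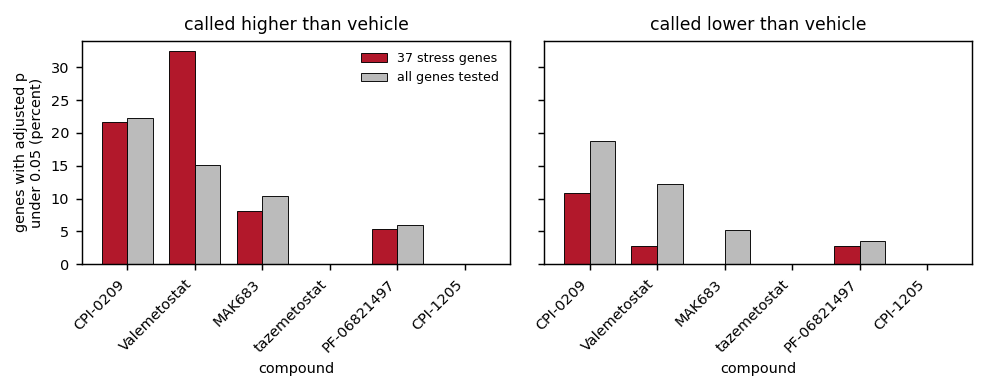
Percent of genes called higher or lower against vehicle by edgeR (y axis) for each compound (x axis), for the 37 stress genes and for all 21958 genes tested. With Valemetostat 12 of the 37 were higher against 15% of all genes, and with tazemetostat and CPI-1205 both shares are 0.

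The counts rest in part on single libraries. The 12 calls with CPI-0209 became 5 without CPI-0209 library 2 and 7 without vehicle library 2. The 13 calls with Valemetostat became 4 without Valemetostat library 1, 7 without vehicle library 3 and 8 without vehicle library 2. Valemetostat library 1 held the highest level of 17 of the 37 genes among all 21 libraries. How many of all genes were highest in that library was not counted. The 3 calls with MAK683 became 1 without vehicle library 2, vehicle library 3 or MAK683 library 2, and the 3 calls with PF-06821497 became 0 without PF-06821497 library 3 and 1 without vehicle library 2 or 3. Of the 31 called values, 9 were called under all 18 alternatives tried, and none reversed sign: MANF, SEL1L, CEBPB and HSPA8 with CPI-0209, MANF, CEBPB, HSPA8 and HSPH1 with Valemetostat, and CEBPB with MAK683. The 6 comparisons share the 3 vehicle libraries.

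**Figure D2:**
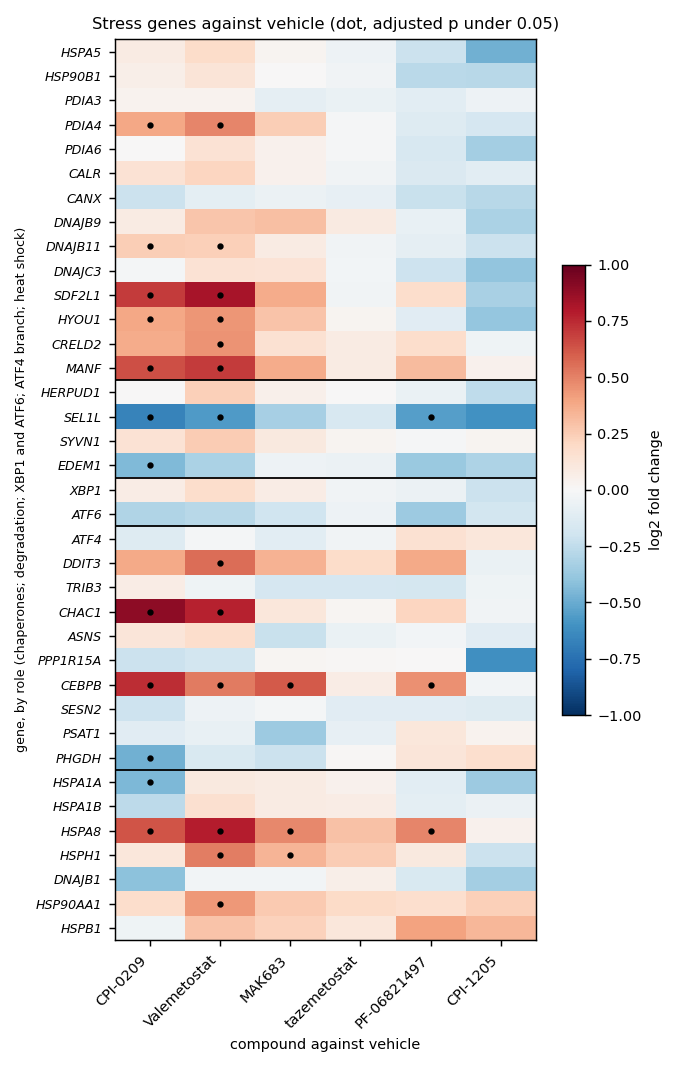
The edgeR log2 fold change against vehicle (colour) of the 37 genes (rows, by role) with each of the 6 compounds (columns), with a dot where the adjusted p is under 0.05. CEBPB and HSPA8 were called higher with 4 of the 6 compounds, and SEL1L was called lower with 3.

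Among the 14 ER chaperones and folding enzymes, PDIA4, DNAJB11, SDF2L1, HYOU1 and MANF rose with CPI-0209 and Valemetostat, and CRELD2 with Valemetostat. With CPI-0209, 5 of 14 rose and 0 fell (22.3% and 18.8% of all genes), and with Valemetostat 6 of 14 rose and 0 fell (15% and 12.2%). With the other 4 compounds 0 of 14 were called. HSPA5 (ENSG00000044574, chr9:125234853-125241330, minus strand, hg38), whose promoter stretch is above, stood at 1334, 1656 and 1587 CPM in vehicle libraries 1 to 3, at 1464, 1694 and 1677 with CPI-0209 and at 1994, 1527 and 1684 with Valemetostat. It stood at 1674, 1615 and 1371 CPM with MAK683 and at 1331, 1630 and 1450 with tazemetostat. In PF-06821497 libraries 1 to 3 it stood at 1422, 1037 and 1489 CPM, and in those of CPI-1205 at 1565, 849 and 865. Every group overlapped vehicle, and the 3 lowest libraries were those with a resubmission mark in the column name. The log2 fold change was 0.08 ± 0.19 with CPI-0209 (edgeR adjusted p 0.774), 0.19 ± 0.19 with Valemetostat (0.512) and -0.48 ± 0.19 with CPI-1205 (0.333). The 95% interval for CPI-0209 ran from -0.32 to 0.48. Over 18 alternatives, among them fits without marked libraries, the value with CPI-1205 ran from -0.83 to 0.08.

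The ER cofactors that rose are named here after their values were seen. MANF, a small secreted factor that binds BiP, stood at 133 ± 11.4 CPM (SD, n = 3) in vehicle, 209 ± 19.3 with CPI-0209 and 217 ± 32.6 with Valemetostat. It rose by 0.65 ± 0.13 and 0.70 ± 0.13 (edgeR adjusted p 0.000411 and 0.000339), with all 3 libraries of either group above all 3 of vehicle. With MAK683 it stood at 173 ± 23.5 CPM (0.37 ± 0.13, edgeR adjusted p 0.0534), above the threshold, and it passed under 7 of 18 alternatives. SDF2L1, a partner of the ER Hsp40 proteins, stood at 55.9 ± 4.14 CPM in vehicle, 90.8 ± 10.7 with CPI-0209 and 98.9 ± 27.7 with Valemetostat, and rose by 0.70 ± 0.21 and 0.82 ± 0.21 (edgeR adjusted p 0.00975 and 0.00494). HYOU1, an ER Hsp110 that exchanges the nucleotide of BiP, rose from 247 ± 10.5 CPM to 323 ± 44.7 and 336 ± 59.8 (0.39 ± 0.14 and 0.44 ± 0.14). PDIA4, a disulfide isomerase, and DNAJB11, an ER Hsp40 cochaperone, also rose with both compounds, by 0.39 and 0.24 with CPI-0209 and by 0.49 and 0.24 with Valemetostat. CRELD2, another ER stress-induced secreted factor, rose with Valemetostat (0.45 ± 0.15). With CPI-0209 it stood at 50.8 ± 4.91 CPM against 39.2 ± 4.65 in vehicle and did not pass. Without CPI-0209 library 2, the calls of PDIA4, DNAJB11, SDF2L1 and HYOU1 with that compound were lost, and without Valemetostat library 1 those of PDIA4, DNAJB11, SDF2L1, HYOU1 and CRELD2 were lost. DNAJB11 was lost in 7 of 18 alternatives with CPI-0209 and in 9 with Valemetostat.

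The remaining chaperones were not called against vehicle. Their widest differences were with CPI-1205, at -0.40 for DNAJC3, -0.34 for PDIA6 and -0.32 for DNAJB9. HSP90B1 (GRP94), the lectin chaperones CALR and CANX, and the isomerases PDIA3 and PDIA6 were not called with any compound. The levels per kilobase of transcript in vehicle were 521 ± 44.4 CPM for CALR, 390 ± 43.4 for HSPA5, 296 ± 18.0 for HSP90B1 and 170 ± 11.7 for PDIA3, against 63.2 ± 5.39 for MANF, 50.9 ± 3.77 for SDF2L1 and 32.1 ± 1.37 for HYOU1. DNAJC3, an ER-resident inhibitor of PERK, was called in the test of any difference among the 7 groups (edgeR adjusted p 0.0316) but in no comparison with vehicle, and DNAJB9, a cochaperone that holds IRE1 off, ran from 17.2 CPM (PF-06821497 library 2) to 35.5 CPM (Valemetostat library 3). The summed level of the 14 genes was 7238 ± 312 CPM in vehicle, 7762 ± 551 with CPI-0209, 8203 ± 801 with Valemetostat and 6070 ± 1087 with CPI-1205. That of CPI-1205 was 7324 CPM in library 1 and 5393 and 5492 CPM in the marked libraries 2 and 3.

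**Figure D3:**
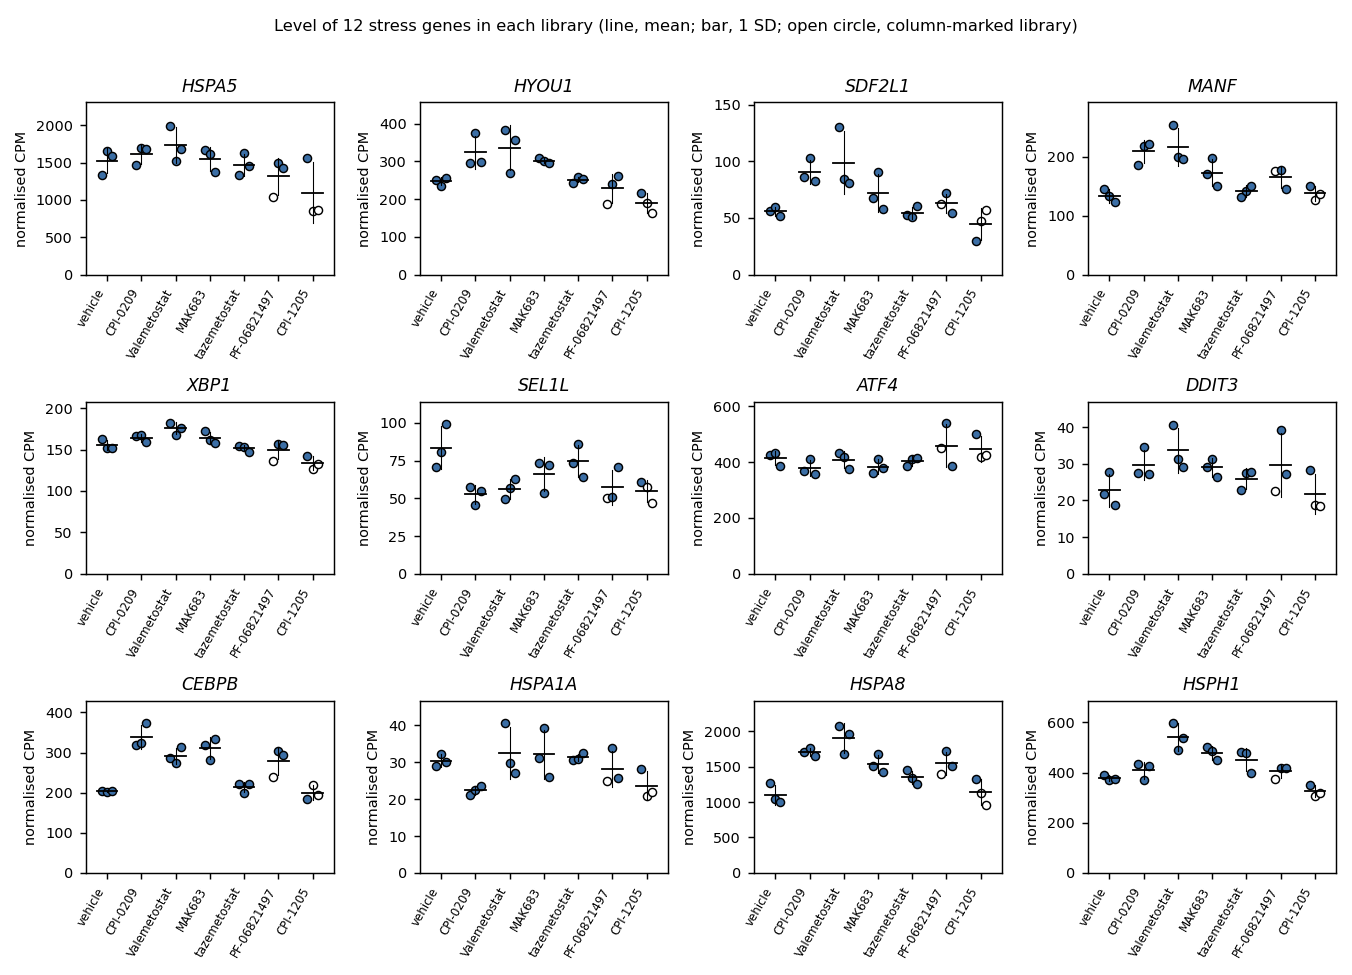
CPM (y axis, starting at 0) of 12 of the 37 genes in each of the 21 libraries, by group (x axis), with a horizontal line at the group mean, a vertical bar of 1 SD and open circles for the column-marked libraries. Vehicle libraries of CEBPB sit at 201 to 205 CPM, below all libraries of CPI-0209, Valemetostat, MAK683 and PF-06821497, and the 3 marked libraries are the lowest for HSPA5, HYOU1 and XBP1.

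Genes of ER-associated degradation, which returns misfolded proteins to the cytosol for destruction, fell or were not called. SEL1L (ENSG00000071537, chr14:81471549-81533861, minus strand), the partner that holds the ubiquitin ligase SYVN1 (HRD1) together, stood at 70.8, 80.6 and 99.1 CPM in vehicle, at 57.6, 45.5 and 55.0 with CPI-0209 and at 49.4, 57.1 and 62.6 with Valemetostat. It stood at 73.5, 53.2 and 72.2 CPM with MAK683 and at 73.5, 85.7 and 64.4 with tazemetostat. The PF-06821497 libraries stood at 70.7, 49.98 and 50.8 CPM, and those of CPI-1205 at 60.7, 57.3 and 46.9. All libraries of CPI-0209, Valemetostat, PF-06821497 and CPI-1205 were below the lowest vehicle library, the closest being PF-06821497 library 1, and MAK683 and tazemetostat overlapped vehicle. SEL1L fell by 0.66 ± 0.17 on the log2 scale with CPI-0209 (edgeR adjusted p 0.00311), by 0.57 ± 0.17 with Valemetostat (0.0141) and by 0.55 ± 0.17 with PF-06821497 (0.0406). With CPI-1205 the difference was as large, -0.60 ± 0.17, but did not pass over all genes (edgeR adjusted p 0.279). The call with PF-06821497 was lost in 8 of 18 alternatives, among them the fit with a term for the column mark and the fits without PF-06821497 library 2 or 3 or vehicle library 2 or 3. The call with Valemetostat was lost without vehicle library 3 or Valemetostat library 1.

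EDEM1, a lectin that selects misfolded glycoproteins for disposal, fell with CPI-0209 from 181 ± 18.9 to 133 ± 17.2 CPM (-0.44 ± 0.14, edgeR adjusted p 0.0124). That call was lost without vehicle library 3, without CPI-0209 library 2 and with upper-quartile scaling. HERPUD1, which recruits the ligase to its substrates, and SYVN1 were not called with any compound, at 0.00 to 0.25 with CPI-0209 and Valemetostat. The exons of SYVN1 overlap FAU on the same strand, whose level was higher (186 CPM against 82.9 CPM on average), so its counts are uncertain.

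The ER stress transcription factors XBP1 and ATF6 were not called against vehicle. XBP1 (ENSG00000100219, chr22:28794555-28800597, minus strand) stood at 162, 152 and 152 CPM in vehicle, at 166, 168 and 159 with CPI-0209 and at 182, 168 and 177 with Valemetostat. It stood at 172, 161 and 158 CPM with MAK683 and at 154, 153 and 147 with tazemetostat. With PF-06821497 the libraries were at 156, 136 and 156 CPM, and with CPI-1205 at 142, 126 and 132. Valemetostat libraries were all above vehicle and CPI-1205 libraries all below it, and the others overlapped. The log2 fold change was 0.17 ± 0.09 with Valemetostat (edgeR adjusted p 0.155, passing under 3 of 18 alternatives) and -0.22 ± 0.09 with CPI-1205 (0.337). XBP1 did differ among the 7 groups (edgeR adjusted p 0.027). ATF6 stood at 128 ± 10.9 CPM in vehicle and at 99.2 ± 8.56 to 123 ± 8.74 in the compound groups, not called in any. Total XBP1 counts do not separate spliced from unspliced messages.

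Of ATF4 and its targets, 2 of 10 rose and 1 fell with CPI-0209 (22.3% and 18.8% of all genes), and 3 rose and 0 fell with Valemetostat (15% and 12.2%). MAK683 and PF-06821497 each gave 1 rise (10.4% and 5.96% of all genes). ATF4 itself (ENSG00000128272, chr22:39519695-39522685, plus strand) stood at 424, 433 and 385 CPM in vehicle, at 366, 411 and 358 with CPI-0209 and at 433, 419 and 374 with Valemetostat. It stood at 360, 413 and 379 CPM with MAK683 and at 385, 412 and 415 with tazemetostat. Levels with PF-06821497 were 387, 449 and 541 CPM, and those with CPI-1205 were 501, 417 and 424. Every group overlapped vehicle, and the log2 fold changes ran from -0.13 ± 0.12 (CPI-0209, edgeR adjusted p 0.416) to 0.15 ± 0.12 (PF-06821497, 0.496).

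DDIT3 (ENSG00000175197, chr12:57516588-57520517, minus strand), which encodes CHOP, stood at 21.8, 27.7 and 18.9 CPM in vehicle, at 27.4, 34.4 and 27.1 with CPI-0209 and at 40.7, 31.2 and 29.0 with Valemetostat. It stood at 29.2, 31.3 and 26.4 CPM with MAK683 and at 22.7, 27.5 and 27.6 with tazemetostat. In PF-06821497 libraries 1 to 3 it stood at 27.1, 22.6 and 39.2 CPM, and with CPI-1205 at 28.2, 18.7 and 18.4. Only Valemetostat was free of overlap with vehicle, and DDIT3 rose there by 0.56 ± 0.20 (edgeR adjusted p 0.0395). The call was lost without vehicle library 1 or 3 and without Valemetostat library 1 or 2. The exons of DDIT3 overlap those of MARS1, a tRNA ligase gene on the opposite strand at 148 CPM on average. MARS1 itself was at 0.10 ± 0.09 with Valemetostat and not called, and because the strand setting of the counting is not known, reads of the pair cannot be told apart.

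CEBPB (ENSG00000172216, chr20:50190734-50192689, plus strand), a bZIP transcription factor that partners ATF4 and is also induced by inflammatory signals, was called with 4 of the 6 compounds, as was HSPA8. It stood at 203, 201 and 205 CPM in vehicle, at 318, 325 and 373 with CPI-0209 and at 287, 274 and 314 with Valemetostat. It stood at 318, 281 and 334 CPM with MAK683 and at 221, 199 and 222 with tazemetostat. The PF-06821497 libraries stood at 293, 240 and 304 CPM, and those of CPI-1205 at 185, 220 and 194. All 12 libraries of CPI-0209, Valemetostat, MAK683 and PF-06821497 were above all vehicle libraries, and tazemetostat and CPI-1205 overlapped vehicle. CEBPB rose by 0.74 ± 0.11 with CPI-0209 (edgeR adjusted p 2.2e-05), by 0.61 ± 0.11 with MAK683 (0.000507), by 0.52 ± 0.11 with Valemetostat (0.00135) and by 0.46 ± 0.11 with PF-06821497 (0.0112). Of these calls, that with PF-06821497 was lost without PF-06821497 library 3. The endothelial marker sum was above vehicle in the same 4 groups, and its part in this result was not tested. PECAM1 made up most of that sum with CPI-0209, at 24.3 to 32.4 CPM against 1.68 to 2.49 in vehicle. The markers CDH5 and VWF were lower, at 0.612 to 1.05 CPM against 1.40 to 2.68 and at 1.14 to 1.45 CPM against 2.67 to 3.815. KDR, TEK, CLDN5 and ESAM were higher in every CPI-0209 library than in every vehicle library. CLDN5 stood at 4.005 to 7.80 CPM against 0.186 to 0.497, and ESAM at 1.89 to 3.10 against 0.452 to 0.922. Of the 7 tested markers, 4 were called higher and 2 lower with CPI-0209.

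CHAC1, which degrades glutathione and is a target of ATF4 with DDIT3, was the least abundant of the 37 and rose from 3.69 ± 0.46 CPM to 6.77 ± 2.07 with CPI-0209 (0.89 ± 0.27, edgeR adjusted p 0.012) and 6.30 ± 2.21 with Valemetostat (0.77 ± 0.27, 0.0373). Valemetostat library 2, at 3.80 CPM, lay within the vehicle range of 3.399 to 4.21, and the calls were lost without CPI-0209 library 2 and, for Valemetostat, in 6 of 18 alternatives. PHGDH, the entry enzyme of serine synthesis, fell with CPI-0209 from 90.5 ± 7.71 to 64.7 ± 15.1 CPM (-0.48 ± 0.18, edgeR adjusted p 0.0347). That call was lost in 9 of 18 alternatives, including RLE and upper-quartile scaling and DESeq2. The other 5 targets were not called with any compound: TRIB3, a pseudokinase that restrains ATF4, ASNS, which makes asparagine, PPP1R15A (GADD34), which recruits the phosphatase of eIF2α, SESN2, a stress-induced inhibitor of mTORC1, and PSAT1. PSAT1, a second enzyme of serine synthesis, stood at 31.4 ± 3.50 CPM with MAK683 against 40.4 ± 1.94 in vehicle (-0.36, edgeR adjusted p 0.0779).

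Among the 7 cytosolic heat shock genes, 1 rose and 1 fell with CPI-0209 (22.3% and 18.8% of all genes). With Valemetostat 3 rose and 0 fell (15% and 12.2%). MAK683 gave 2 rises and PF-06821497 gave 1 (10.4% and 5.96% of all genes). The constitutive Hsp70, HSPA8, rose with each of these compounds, and the stress-inducible HSPA1A and HSPA1B were not called higher with any. HSPA8 (ENSG00000109971, chr11:123057489-123063230, minus strand), the constitutive Hsc70 that folds new proteins and uncoats clathrin vesicles, stood at 1266, 1037 and 998 CPM in vehicle, at 1702, 1762 and 1644 with CPI-0209 and at 2076, 1672 and 1953 with Valemetostat. It stood at 1501, 1670 and 1427 CPM with MAK683 and at 1446, 1344 and 1258 with tazemetostat. With PF-06821497 the libraries were at 1509, 1401 and 1725 CPM, and with CPI-1205 at 1321, 1131 and 957. All libraries of the first 3 compounds and of PF-06821497 were above all vehicle libraries, and tazemetostat and CPI-1205 overlapped vehicle. HSPA8 rose by 0.79 ± 0.13 with Valemetostat (edgeR adjusted p 0.00013), by 0.63 ± 0.13 with CPI-0209 (0.000668), by 0.49 ± 0.13 with PF-06821497 (0.0216) and by 0.48 ± 0.13 with MAK683 (0.0159). The calls with PF-06821497 and MAK683 were lost without vehicle library 2 or 3, and also without PF-06821497 library 3 and MAK683 library 2, respectively. With tazemetostat the difference was 0.29 ± 0.13 (unadjusted p 0.0375, edgeR adjusted p 1).

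HSPA1A (ENSG00000204389, chr6:31815464-31817946, plus strand), a stress-inducible Hsp70, stood at 29.0, 32.3 and 30.04 CPM in vehicle, at 21.2, 22.5 and 23.5 with CPI-0209 and at 40.6, 29.8 and 27.2 with Valemetostat. It stood at 31.0, 39.4 and 26.1 CPM with MAK683 and at 30.7, 30.9 and 32.5 with tazemetostat. Levels with PF-06821497 were 25.9, 25.0 and 33.9 CPM, and those with CPI-1205 were 28.3, 21.0 and 21.9. CPI-0209 and CPI-1205 libraries were all below vehicle, and HSPA1A fell with CPI-0209 by 0.45 ± 0.16 (edgeR adjusted p 0.0345), a call lost in 9 of 18 alternatives, among them RLE and upper-quartile scaling and DESeq2. HSPA1A and its neighbour HSPA1B encode nearly the same protein from nearly identical sequences, so the split of reads between them is uncertain. HSPA1B was listed at 465 ± 22.1 CPM in vehicle and 387 ± 28.6 with CPI-0209 and was not called with any compound. The sum of both was 495 ± 23.1 CPM in vehicle, 410 ± 28.2 with CPI-0209, 553 ± 128 with Valemetostat and 470 ± 52.0 with CPI-1205.

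The other cytosolic chaperones are given after their values were seen. HSPH1 (Hsp110), the nucleotide exchange factor of Hsp70, stood at 379 ± 10.9 CPM in vehicle, 541 ± 54.5 with Valemetostat and 479 ± 27.5 with MAK683, and rose by 0.51 ± 0.11 (edgeR adjusted p 0.00122) and 0.34 ± 0.11 (0.037). With CPI-0209 it stood at 410 ± 33.5 CPM (0.11, edgeR adjusted p 0.432). HSP90AA1, the inducible cytosolic Hsp90, was called with Valemetostat alone and rose there from 1325 ± 186 to 1790 ± 197 CPM (0.43 ± 0.15, edgeR adjusted p 0.0306), a call lost without vehicle library 2 or 3 or Valemetostat library 1 or 2. DNAJB1, the Hsp40 partner of Hsp70, and the small heat shock protein HSPB1 were not called with any compound. HSPB1 ran from 1204 to 2357 CPM over the 21 libraries.

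The 3 libraries with a resubmission mark in the column name held low levels of many ER genes. They were the 3 lowest of 21 for 10 of the 37 genes: HSPA5, HSP90B1, PDIA4, PDIA6, DNAJB9, HYOU1, HERPUD1, SYVN1, XBP1 and PPP1R15A. For how many of all genes they were the 3 lowest was not counted. HSPA5 stood at 849, 865 and 1037 CPM in the marked libraries and at 1331 CPM or more in the other 18 libraries. With the mark as a term beside the groups, 9 of the 37 were lower in marked libraries and 0 higher, against 4.3% and 1.98% of all genes. The 9 were HSPA5 (-0.68 ± 0.13, edgeR adjusted p 0.00498), HERPUD1 (-0.66 ± 0.13, 0.00448), SYVN1 (-0.61 ± 0.12, 0.0047), PPP1R15A (-0.75 ± 0.17, 0.0143), DNAJB9 (-0.59 ± 0.15), DDIT3 (-0.58 ± 0.17), SESN2 (-0.52 ± 0.13), HSP90B1 (-0.42 ± 0.12) and PDIA6 (-0.41 ± 0.12). The median over the 37 was -0.25, against 0.01 over all genes tested. This comparison was chosen after the data were seen, and rests on differences within PF-06821497 and CPI-1205 alone. CPI-1205 library 1, which has no mark, stood within or above the vehicle range for HSPA5 (1565 CPM), HSP90B1 (1515 CPM), SYVN1 (110 CPM), HERPUD1 (90.8 CPM) and SESN2 (42.8 CPM), and below it for HYOU1 (215 CPM), PDIA6 (358 CPM) and PPP1R15A (84.5 CPM). The mark in titles, which stands on another PF-06821497 library, gave 0 of the 37 and 0% of all genes. Because titles and column names number these libraries differently, both marks may mean the same resubmitted sample, which cannot be settled here. At an unadjusted edgeR p under 0.05 there were 9 of the 37 and 2698 of all genes. The cytosolic genes HSPA8 and HSPH1 were at -0.27 ± 0.12 and -0.17 ± 0.11 for the column mark and were not called.

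**Figure D4:**
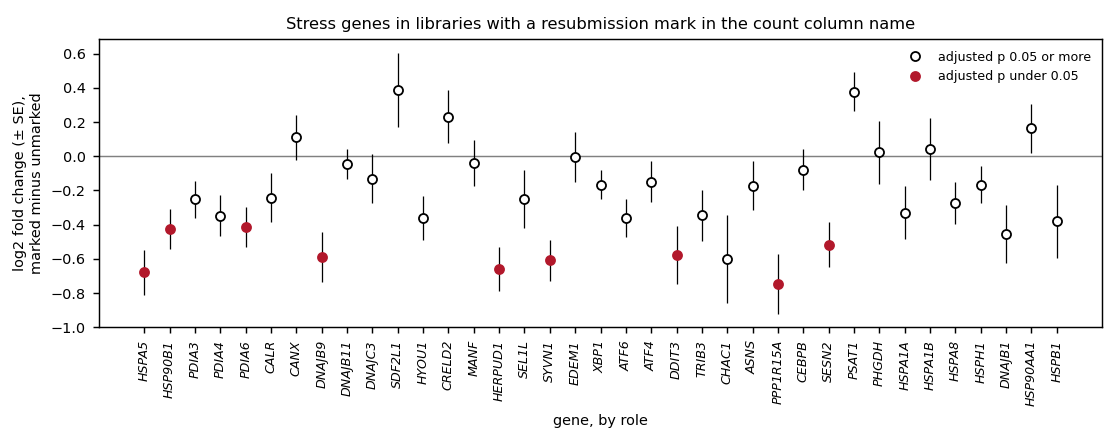
Log2 fold change ± SE, marked minus unmarked libraries within groups (y axis), for each of the 37 genes by role (x axis), with genes of adjusted p under 0.05 filled. The called genes lie between -0.75 (PPP1R15A) and -0.41 (PDIA6), and all 9 are negative.

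The compounds were compared with each other at the same dose and time, in 15 pairs and so 555 gene and pair tests of the 37. Of these 71 were called when adjusted within a pair, against 12.2% of all gene and pair tests, and 63 when adjusted over all 15 pairs. How many of all gene and pair tests passed when adjusted over the 15 pairs was not counted. The 71 calls fell on 21 of the 37 genes and 10 of the pairs. CPI-0209 and Valemetostat, the pair with the most calls against vehicle, differed in 0 of the 37 (0% of all genes) when adjusted within the pair, with 3 at an unadjusted p under 0.05. For this and the other pairs, the number of all genes at an unadjusted p under 0.05 was not counted. The differences, Valemetostat minus CPI-0209, ran from -0.22 (CEBPB) to 0.54 (HSPA1A), and the 95% interval was -0.29 to 0.50 for HSPA5, -0.21 to 0.32 for MANF, -0.12 to 0.43 for HSPA8 and 0.18 to 0.63 for HSPH1. Adjusted over the 15 pairs, HSPA1A and HSPH1 did pass in this pair (edgeR adjusted p 0.0344 and 0.0176), both higher with Valemetostat in all 3 libraries. That adjustment pools the tests of all pairs. For a pair with few or no calls of its own it is less strict than the adjustment within the pair. It does not control errors within such a pair. The pairs share libraries, so their values are not independent.

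Against CPI-0209, tazemetostat was higher for 4 and lower for 7 of the 37, where 37% of all genes differed. Adjusted over the 15 pairs, 5 of these 11 were called (MANF, DNAJB11, CHAC1, CEBPB and SDF2L1). MANF was at -0.56 ± 0.13 (edgeR adjusted p 0.00175), CEBPB at -0.66 ± 0.11 and SEL1L at 0.50 ± 0.17 (edgeR adjusted p 0.0571 over the 15 pairs). Against Valemetostat, tazemetostat was lower for 7 and higher for 0, where 20.3% of all genes differed: PDIA4, DNAJB11, SDF2L1, HYOU1, MANF, CEBPB and HSPA8, with HSPA8 at -0.49 ± 0.13. PF-06821497 was lower than Valemetostat for PDIA4, DNAJB11, HYOU1 and HSPH1 (4.62% of all genes differed), with PDIA4 at -0.62 ± 0.14 and no overlap of libraries, and SDF2L1 passed as well over the 15 pairs (edgeR adjusted p 0.0437). With a term for the column mark 4 of the 37 were lower in this pair, where 1207 of all genes differed. Without the column-marked libraries 1 of the 37 was lower, where 1032 of all genes differed. PF-06821497 was also lower than CPI-0209 for PDIA4, DNAJB11 and HYOU1 and higher for PHGDH (22.6% of all genes). Without the column-marked libraries it was lower for 2 and higher for 1 (5443 of all genes). MAK683 differed from Valemetostat in 0 of the 37 (0.0273% of all genes), with 6 at an unadjusted p under 0.05, and from CPI-0209 in HSPA1A alone (0.53 ± 0.16, edgeR adjusted p 0.049, 9.08% of all genes). Tazemetostat was lower than MAK683 for CEBPB alone (-0.54 ± 0.11, edgeR adjusted p 0.00296, 9.2% of all genes).

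CPI-1205 was lower than Valemetostat for 18 of the 37 and higher for 0 (21.5% of all genes differed), lower than CPI-0209 for 13 and higher for 1 (35.2%) and lower than MAK683 for 10 and higher for 0 (15.4%). SDF2L1 had the widest differences, -1.15 ± 0.21 against Valemetostat and -1.03 ± 0.21 against CPI-0209, and HYOU1 was at -0.83 ± 0.14 and -0.77 ± 0.14. CHAC1 was at -0.80 ± 0.27 and -0.92 ± 0.27, with libraries that overlapped. Adjusted over the 15 pairs, 15, 10 and 9 genes were called with Valemetostat, CPI-0209 and MAK683 as the other compound. With a term for the column mark the 18, 13 and 10 became 9, 7 and 3, and without the 3 marked libraries, which left CPI-1205 library 1 alone, they became 5, 3 and 2, with 1, 3 and 0 genes higher. The spread of that single library is assumed to be that of the other groups. Between CPI-1205 and tazemetostat 0 of the 37 were called within the pair (0% of all genes), with 11 at an unadjusted p under 0.05. HSPH1 (-0.47 ± 0.11) passed only when adjusted over the 15 pairs (edgeR adjusted p 0.00564), the less strict adjustment for this pair. CPI-1205 was lower than PF-06821497 for CEBPB (-0.48 ± 0.11, edgeR adjusted p 0.0146, 4.8% of all genes), and over the 15 pairs HSPA8 passed as well (0.032). PF-06821497 differed from tazemetostat (2.4% of all genes) and MAK683 (1.17%) in 0 of the 37 when adjusted within the pair, with 4 and 8 at an unadjusted p under 0.05. Over the 15 pairs, CEBPB passed against tazemetostat (edgeR adjusted p 0.0268) and PSAT1 against MAK683 (0.0241). Over all 7 groups, 14 of the 37 differed in at least 1 group (35.8% of all genes), and 13 differed among the 6 compounds (32.3%).

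Other genes of these pathways, from 4 lists, moved in both directions and included larger changes. For the lists that follow, the shares of all genes called higher and lower were 22.3% and 18.8% with CPI-0209, 15% and 12.2% with Valemetostat, 10.4% and 5.17% with MAK683 and 5.96% and 3.59% with PF-06821497. Of 19 stress sensors and regulators, 2 rose and 9 fell with CPI-0209, 0 rose and 8 fell with Valemetostat, 2 rose and 4 fell with MAK683 and 0 rose and 3 fell with PF-06821497. EIF2AK4 (GCN2), the eIF2α kinase that senses uncharged tRNA, fell from 78.8 ± 10.4 CPM in vehicle to 40.8 ± 3.83 with CPI-0209 (-0.95 ± 0.13, edgeR adjusted p 5.13e-06) and to 43.4 ± 5.09 with Valemetostat (-0.86 ± 0.13). CREB3L2, an ATF6-like factor of the secretory pathway, fell by 0.85 ± 0.13 and 0.55 ± 0.13, and EIF2AK1, the haem-regulated kinase, by 0.46 ± 0.09 and 0.34 ± 0.09. CREB3L1, a relative of CREB3L2, was at 1.16 ± 0.65 CPM in vehicle and rose to 10.3 ± 5.65 with CPI-0209 (3.13 ± 0.58, edgeR adjusted p 0.000237).

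Of 46 tested genes of the ATF4 pathway beside the 10 (47 were listed), 8 rose and 14 fell with CPI-0209, 5 rose and 7 fell with Valemetostat, 2 rose and 4 fell with MAK683 and 0 rose and 2 fell with PF-06821497. SLC7A11, the cystine transporter, fell from 86.8 ± 14.7 CPM to 16.8 ± 4.88 with CPI-0209, 22.2 ± 4.22 with Valemetostat, 31.2 ± 2.71 with MAK683 and 38.5 ± 13.5 with PF-06821497, the last being -1.17 ± 0.22 (edgeR adjusted p 0.00137). SLC1A4, a neutral amino acid transporter, fell by 1.05 ± 0.11 with CPI-0209. WARS1, the tryptophan tRNA ligase that interferon also induces, rose from 61.7 ± 3.11 CPM to 140 ± 6.53 with CPI-0209 and 124 ± 23.6 with Valemetostat, and ADM2, a secreted peptide, rose from 1.42 ± 0.19 CPM to 4.95 ± 2.15 and 4.45 ± 0.60. The values of the 46 with CPI-0209 ran from -2.37 to 1.85, with a median of -0.13.

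Of 47 further ER folding and degradation genes, 10 rose and 4 fell with CPI-0209, 7 rose and 3 fell with Valemetostat, 4 rose and 1 fell with MAK683 and 3 rose and 2 fell with PF-06821497. ERO1B, an oxidase that recharges disulfide isomerases, rose from 1.44 ± 0.23 CPM to 5.23 ± 0.47 and 4.58 ± 1.29 with CPI-0209 and Valemetostat, and DNAJC1, an ER Hsp40, from 27.5 ± 1.36 to 52.9 ± 7.20 and 44.8 ± 3.55. KDELR3, which returns ER residents from the Golgi, rose by 0.77 ± 0.14 and 0.79 ± 0.14.

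Of 37 further heat shock and cytosolic chaperone genes, 7 rose and 5 fell with CPI-0209, 11 rose and 4 fell with Valemetostat, 3 rose and 0 fell with MAK683 and 1 rose and 0 fell with PF-06821497. DNAJA4, an Hsp40, rose from 4.57 ± 0.94 CPM to 34.1 ± 6.90 with CPI-0209 (2.89 ± 0.24, edgeR adjusted p 1.32e-08), 26.1 ± 7.46 with Valemetostat and 24.2 ± 6.09 with MAK683. SERPINH1 (Hsp47), the collagen chaperone of the ER, rose from 156 ± 12.1 CPM to 261 ± 34.8 and 253 ± 30.8 with CPI-0209 and Valemetostat. The fibroblast marker sum was 1728 to 4387 CPM with CPI-0209 and 1257 to 1536 CPM with Valemetostat, against 1271 to 2043 CPM in vehicle. Of its 10 genes, 6 rose and 2 fell with CPI-0209, and 4 rose and 2 fell with Valemetostat. COL1A1 stood at 347 to 732 CPM with Valemetostat against 167 to 369 in vehicle, and COL1A2 at 494 to 754 against 824 to 1255. The part of fibroblasts in SERPINH1 was not tested. DNAJA1 rose by 0.46 ± 0.11 and 0.53 ± 0.11, and CRYAB, a small heat shock protein, fell by 1.08 ± 0.23 and 0.82 ± 0.23. With tazemetostat and CPI-1205, 0 of the genes of all 4 lists were called.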

How the data were processed

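The authors deposited 1 table of raw counts per library, holding 57500 Ensembl genes with exon coordinates and lengths. STAR 2.7.3a, RSEM 1.3.1 and hg38 are named in the submitters' processing notes. Not given in the sources used here are the annotation release, the program that counted, whether it used strand and whether mouse reads were removed. Mouse reads counted on human genes would add to any level. Symbols came from a table that matched 56410 identifiers, with MYLPF, a muscle marker, unmatched.

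Libraries were grouped by their labelled treatment. All 21 were fitted together with a term per group in edgeR 4.0.16 (R 4.3.3): filterByExpr by group, TMM scaling, robust quasi-likelihood dispersions, two-sided tests and Benjamini-Hochberg adjustment over 21958 genes, with 14 residual degrees of freedom. The SE is the log2 fold change divided by the square root of F, and group values are mean ± SD. Within-group correlations of log2 CPM ran from 0.975 to 0.9922, and no 2 tables were identical. Compounds were also compared in 15 pairs. The pipeline was tested on simulated data.

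The 37 genes and the lists were chosen with earlier results of these data known. Library values were given for HSPA5, XBP1, ATF4, DDIT3, HSPA1A and genes called in at least 3 of 6 comparisons with vehicle, and up to 4 genes per other list, with adjusted p under 0.05, by the smallest p among the 7 groups; 1 gene so chosen is not reported here. Depth ran from 9725690 to 25771778 counts per library and the common biological coefficient of variation was 0.163. Promoter windows came from RefSeq. Alternatives were other filters, RLE and upper-quartile scaling, DESeq2 1.42.0, limma-voom (limma 3.58.1), a fit of only the groups compared, a replicate block, terms for or omission of the marked libraries, and each library left out. Those for the column mark were added after the data were examined. The exons of 16 of the 37 genes overlap another gene, and for 7 the partner stood above 10% of the gene's own level (PDIA6, DNAJB9, DNAJB11, CRELD2, SYVN1, DDIT3 and DNAJB1).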

Additional observations from a re-analysis of the deposited data

How the results depend on the processing

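Of 200 alternative counts of called genes among the 37, 182 were within 1.5 times the reported count. The 182 include counts of 0 that stayed 0, as in all alternatives with tazemetostat, where almost no gene was called. The 31 called values gave 558 alternative values, of which 460 stayed called, 98 no longer passed and 0 changed sign. Counts that moved further were MAK683 from 3 to 6 when only the groups compared were fitted and to 5 with a term for the column mark, PF-06821497 from 3 to 1 when only the groups compared were fitted and to 5 without the title-marked libraries, and CPI-1205 from 0 to 2 with no filter. The 71 calls over 15 pairs became 47 without the title-marked and 44 without the column-marked libraries. With 1 library left out, the counts ran from 5 to 10 for CPI-0209, 4 to 10 for Valemetostat, 1 to 4 for MAK683, 0 to 4 for PF-06821497, 11 to 19 for any difference among the 7 groups, 10 to 18 among the 6 compounds and 53 to 94 over the pairs, and were 0 for tazemetostat and CPI-1205. With CPI-0209 the 8 rises became 5 with no filter, 5 without vehicle library 1 or 2 and 3 without CPI-0209 library 2, and the 4 falls became 2 with the CPM filter, RLE scaling, DESeq2 or without any 1 of the libraries of the comparison other than vehicle library 1, and 1 with upper-quartile scaling. The cause of these moves was not tested. Same-numbered libraries of different groups had a median correlation of deviations of -0.0517 (range -0.313 to 0.326), against 0.0193 for other pairs. These values show no pairing by number. With 3 libraries per group and uncertain PF-06821497 numbers, they cannot exclude it. With the replicate number as a block, the counts were 12 for CPI-0209, 11 for Valemetostat, 3 for MAK683, 2 for PF-06821497, 0 for tazemetostat and CPI-1205, 12 among the 7 groups, 12 among the 6 compounds and 64 over the pairs. The block lost the calls of DNAJB11 and DDIT3 with Valemetostat and SEL1L with PF-06821497. The 3 libraries per group and the lowest depth, that of CPI-0209 library 3, limit the precision.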
